A study of Homo sapiens with 3 samples.

Results

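The centriole and centrosome genes described here are 39 genes chosen by name for their protein products, and they were found on the arrays by the gene name each probe carries. For 38 of the 39, at least 1 probe was well above background, among 22620 genes measured in all. The arrays were made from HCT116 cells, an established human colorectal cancer line, after transfection with either of 2 small interfering RNAs against SMARCA4 (SMARCA4-KD1 and SMARCA4-KD2) or with a scrambled negative control (NC), with 1 array per condition. SMARCA4 is the ATPase of SWI/SNF chromatin remodelling complexes, and the comparison asks which transcripts differed when it was depleted. All 3 groups are the same cell line, grown alike, and which small interfering RNA was used for which knockdown array was not given in the sources used here.

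A centriole is a short barrel of microtubules that is copied once in each cell cycle, when a new centriole grows at a right angle from the wall of an old one. PLK4 starts this step, STIL and SASS6 build a cartwheel that sets the symmetry of the new barrel, and CENPJ, CEP135 and the POC1 proteins lengthen and stabilise its wall. Centrioles gather pericentriolar material, in which gamma-tubulin rings nucleate microtubules for the mitotic spindle, and in resting cells the older centriole carries the appendages that anchor a primary cilium. A fibrous linker holds both centrosomes of a cell together until mitosis.

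After SMARCA4 knockdown, STIL, CEP135, POC1A, POC1B, POC5 and CEP55 were each at least 1.5-fold lower than in NC with either small interfering RNA. None of the 38 genes was at least 1.5-fold higher with either, each gene being read by its brightest probe. In SMARCA4-KD1, 10 of the 38 (26.3%) were at least 1.5-fold lower, against 12.2% of all genes measured. In SMARCA4-KD2, 10 of the 38 (26.3%) were at least 1.5-fold lower, against 9.77% of all genes. The share of all genes at least 1.5-fold higher was 11.2% with SMARCA4-KD1 and 10.1% with SMARCA4-KD2. Both comparisons used the same NC array, so they are not independent of each other, and lower in both were 6 of the 38 (15.8%) against 8.03% of all genes. Higher in both were 0 of the 38, against 6.36% of all genes. POC1A is among the genes that the study had picked on these same samples, so that its place in this count is not independent evidence, and without it 5 of 37 remain.

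Over the 38 genes, log2 fold changes had a median of -0.34 with SMARCA4-KD1 and -0.33 with SMARCA4-KD2, beside medians of 0.00 and 0.02 over all genes. Below 0 were 35 of the 38 with SMARCA4-KD1 and 36 with SMARCA4-KD2, against 50.2% and 47.9% of all genes. The lowest value was that of CEP135 in both knockdowns and the highest that of PCM1, at 0.12 and 0.21. In the bulk RNA of an array, fewer cells making a transcript and less transcript per cell cannot be told apart.

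**Figure D1:**
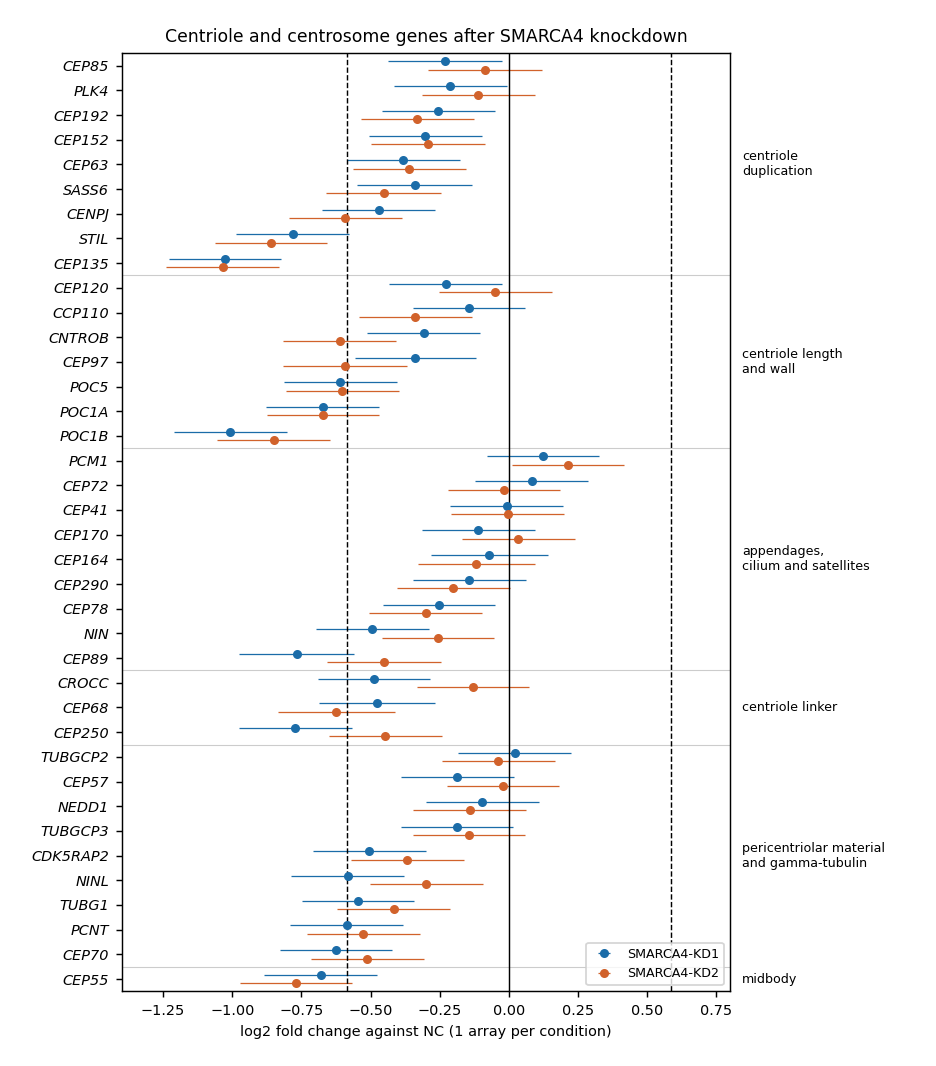
Log2 fold change against NC (horizontal axis) of the 38 centriole and centrosome genes, grouped by role, in SMARCA4-KD1 (blue) and SMARCA4-KD2 (orange), 1 array each. Bars are the error that the extraction software gave for each spot, combined over both arrays of a difference (0.20 to 0.22), and dashed lines mark 1.5-fold; 6 genes lie left of the line with both small interfering RNAs and no gene lies right of it.

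Some features of the arrays bear on every value. SMARCA4 itself read 3960 with SMARCA4-KD1, 4129 with SMARCA4-KD2 and 14030 in NC, leaving 26.6% and 28.8% of the NC level after scaling. The labels give SMARCA4 in the sample titles but PRMT1 as the treatment, and PRMT1 had log2 fold changes of 0.27 and 0.37. Slide 1 held both knockdown arrays and slide 2 the NC array, and the slides were scanned separately, so that slide and knockdown cannot be told apart. The 5 epithelial markers chosen for this line (EPCAM, CDH1, KRT8, KRT18 and KRT19) were well above background on all 3 arrays. Of 5 markers of other cells, PTPRC and COL1A1 were well above background, PTPRC at signals of 37.0 to 49.4 and COL1A1 at 347.7 to 477, and COL1A2, PECAM1 and HBB were not well above background on any array.

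No condition has a second array, so the measure of the spread between arrays used here is the difference between the knockdown arrays. Both lie on the same slide, so this difference holds no spread between slides. Over the 38 genes the absolute difference between SMARCA4-KD1 and SMARCA4-KD2 had a median of 0.11 and a largest value of 0.36 on the log2 scale, for CROCC. The genes well above background on all arrays had a median absolute difference of 0.12. Signals below are intensities as deposited, and fold changes were taken after each array was scaled to its 75th percentile, which was 236.9 with SMARCA4-KD1, 228.5 with SMARCA4-KD2 and 223.4 in NC. Signals of different genes come from different probes and are not compared with each other.

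Among the 9 genes of centriole duplication, each was below NC with both small interfering RNAs, with medians of -0.34 and -0.36. CEP135, which joins the cartwheel to the microtubule wall, gave a signal of 536 with SMARCA4-KD1, 514 with SMARCA4-KD2 and 1029 in NC. Both knockdown arrays were thus near each other and far below NC, at 49.1% and 48.8% of the NC level after scaling, log2 fold changes of -1.03 and -1.03. STIL, the partner and substrate of PLK4 that brings SASS6 to the growing centriole, read 1809, 1652 and 2933 in the same order, with log2 fold changes of -0.78 and -0.86. CENPJ, which binds tubulin and sets centriole length, read 1589, 1410 and 2077. It fell short of 1.5-fold with SMARCA4-KD1, at -0.47, and passed it with SMARCA4-KD2, at -0.59.

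PLK4, the kinase that starts duplication, differed little between the arrays. Its signal was 437.5 with SMARCA4-KD1, 453 with SMARCA4-KD2 and 478 in NC, log2 fold changes of -0.21 and -0.11. Its value with SMARCA4-KD1 was close to the extraction error of 0.20 and that with SMARCA4-KD2 was below it. SASS6, the cartwheel protein, read 180, 161 and 215, log2 fold changes of -0.34 and -0.45.

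The scaffolds that bring PLK4 to the old centriole, CEP152 and CEP192, were also below NC by less than 1.5-fold. CEP152 read 441 with SMARCA4-KD1, 428 with SMARCA4-KD2 and 513 in NC, log2 fold changes of -0.30 and -0.29. CEP192 read 1409, 1290 and 1587, log2 fold changes of -0.26 and -0.33. CEP63, which works together with CEP152, read 705, 691 and 867, log2 fold changes of -0.38 and -0.36. CEP85, which acts with STIL, was at -0.23 and -0.09. Within the pathway from the kinase to the wall, the genes at least 1.5-fold lower with both small interfering RNAs were thus STIL and CEP135, and the other 7 lay between -0.59 and -0.09.

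For the genes of centriole length and wall, 7 of 8 were measured and all 7 were below NC, with medians of -0.34 and -0.60. POC1A and POC1B are paralogs whose proteins sit along the centriole wall. POC1B gave a signal of 413.5 with SMARCA4-KD1, 444 with SMARCA4-KD2 and 784 in NC. Of its NC level, 49.8% was left with SMARCA4-KD1 and 55.4% with SMARCA4-KD2, log2 fold changes of -1.01 and -0.85. POC1A read 1349, 1302 and 2028, with 62.7% and 62.8% of the NC level left, log2 fold changes of -0.67 and -0.67. The paralogs were therefore lower together in both knockdowns.

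POC5, a centrin-binding protein of the distal centriole, read 1091 with SMARCA4-KD1, 1057 with SMARCA4-KD2 and 1570 in NC, log2 fold changes of -0.61 and -0.60. These values lie just past 1.5-fold and rest on the processing. With normexp background correction they were -0.49 and -0.45, and with the mean of both POC5 probes -0.57 and -0.50, so that POC5 no longer reached 1.5-fold. The other 4 measured genes of this group did not reach 1.5-fold with both small interfering RNAs. CNTROB, a protein of daughter centrioles, was at -0.31 and -0.61, and CEP97 and CCP110, which together cap the growing end, were at -0.34 and -0.59 and at -0.14 and -0.34. CEP120, which acts in elongation, was at -0.23 and -0.05. SPICE1, the remaining gene of the group, was not well above background on any array (signals of 12.9, 16.1 and 6.61), and no fold is given for it.

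**Figure D2:**
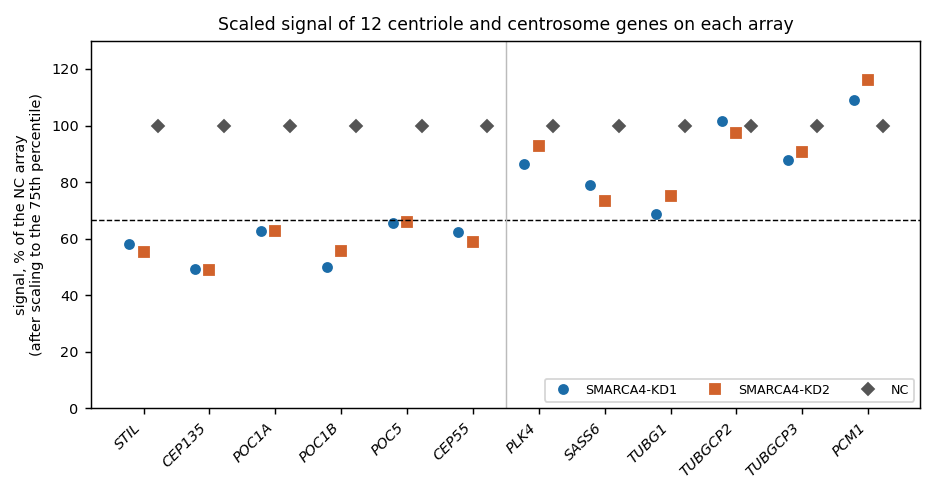
Signal of 12 of the genes on each array as a percentage of NC (vertical axis, after scaling to the 75th percentile), 1 point per array, with the dashed line at 1.5-fold below NC. The 6 genes on the left lie at or below 65.9% of NC on both knockdown arrays, while TUBGCP2 lies at 101.5% and 97.3% and PCM1 lies above NC on both.

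CEP55 acts at the midbody, where it recruits the machinery that cuts daughter cells apart, and its transcript is known to peak in G2 and mitosis. Its signal was 4205 with SMARCA4-KD1, 3815 with SMARCA4-KD2 and 6359 in NC. The knockdown arrays held 62.4% and 58.7% of the NC level, log2 fold changes of -0.68 and -0.77. A second probe of CEP55 read 738, 764 and 1263, log2 fold changes of -0.86 and -0.76.

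Genes of the pericentriolar material were divided. The scaffold proteins PCNT and CDK5RAP2 were below NC with both small interfering RNAs, PCNT at -0.59 and -0.53 and CDK5RAP2 at -0.51 and -0.37. PCNT lies just past 1.5-fold with SMARCA4-KD1, while NINL, a ninein-like protein at -0.58 and -0.30, lies just short of it. CEP70, which binds gamma-tubulin, was at -0.62 and -0.51. NEDD1, which brings gamma-tubulin rings to the centrosome, was at -0.10 and -0.14, and CEP57, a neighbour of CEP63 at the centriole, was at -0.19 and -0.02.

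The gamma-tubulin ring itself showed unequal values among its subunits. TUBG1, gamma-tubulin, read 17280 with SMARCA4-KD1, 18220 with SMARCA4-KD2 and 23790 in NC, log2 fold changes of -0.55 and -0.42. TUBGCP2 and TUBGCP3 form with gamma-tubulin the small complex from which the ring is built. TUBGCP2 read 670, 620 and 622.5, log2 fold changes of 0.02 and -0.04. TUBGCP3 read 1802, 1791 and 1936, log2 fold changes of -0.19 and -0.14. By the brightest probes, the values of TUBGCP2 and TUBGCP3 lie within the extraction error of 0 in both knockdowns, and those of TUBG1 lie beyond it. A second TUBGCP3 probe was at -0.00 and -0.22, the latter just beyond its error of 0.20. None of these 3 genes reached 1.5-fold in either knockdown, although for TUBG1 with SMARCA4-KD1 this rests on the processing, its log2 fold change being -0.69 with quantile normalization and -0.60 with the percentile over probes well above background.

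Genes of the appendages, the cilium and the satellites were the group nearest to NC, with medians of -0.11 and -0.12 over 9 genes. PCM1, the scaffold of centriolar satellites, read 4633 with SMARCA4-KD1, 4758 with SMARCA4-KD2 and 4011 in NC, and was the only gene of the 38 above NC in both knockdowns. CEP41, a protein of ciliary tubulin modification, was at -0.01 and -0.00, and CEP72, a satellite protein, at 0.08 and -0.02. The distal appendage protein CEP164 was at -0.07 and -0.12, the subdistal appendage protein CEP170 at -0.11 and 0.03, and CEP290, a protein of the ciliary transition zone, at -0.14 and -0.20. CEP78 was at -0.25 and -0.30. CEP89, another distal appendage protein, stood lower, at -0.77 with SMARCA4-KD1 and -0.45 with SMARCA4-KD2, and NIN, which anchors microtubules at subdistal appendages, was at -0.49 and -0.26.

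The linker genes were all 3 below NC by their brightest probes. CEP250, which anchors the linker to the centriole end, was at -0.77 with SMARCA4-KD1 and -0.45 with SMARCA4-KD2. CEP68 was at -0.48 and -0.62, and CROCC, the rootletin of the linker fibres, was at -0.49 and -0.13. A second CEP68 probe was at -0.60 and -0.21, so which knockdown was lower for CEP68 depended on the probe. The CROCC probes also differed from each other, as given below.

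Several genes were measured by more than 1 probe, which gives a check within each array. Of 57 probes for the 39 genes, 53 were well above background, each on all 3 arrays, and 13 genes had more than 1 such probe. Their 15 other probes had the sign of the brightest probe in 14 cases with SMARCA4-KD1 and in 14 with SMARCA4-KD2. The median absolute difference from the brightest probe was 0.18 and 0.14 on the log2 scale. For STIL a second probe gave -0.79 and -0.58, for TUBG1 -0.59 and -0.56, and for CEP250 -0.86 and -0.71. The second NIN probe was lower than the first, at -0.96 and -0.74. The second PCM1 probe was higher than the first, at 0.63 and 0.48, which is past 1.5-fold for SMARCA4-KD1. The second probes of NIN and CEP250 were past 1.5-fold lower in both knockdowns, and that of STIL fell just short with SMARCA4-KD2. Which genes are counted at 1.5-fold thus rests in part on taking the brightest probe.

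CROCC was the gene whose probes were furthest apart with SMARCA4-KD1, and it is named here after its values were seen. With SMARCA4-KD2 the largest difference from the brightest probe, 0.48, was that of NIN. The brightest CROCC probe, on chromosome 1 of hg19 from 17299343 to 17299402, was at -0.49 and -0.13. The other 3 CROCC probes were at 0.18 and -0.00, -0.00 and -0.20, and -0.10 and -0.24. CROCC has near-identical pseudogene copies in the genome, so its probes are uncertain as measures of CROCC alone.

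**Figure D3:**
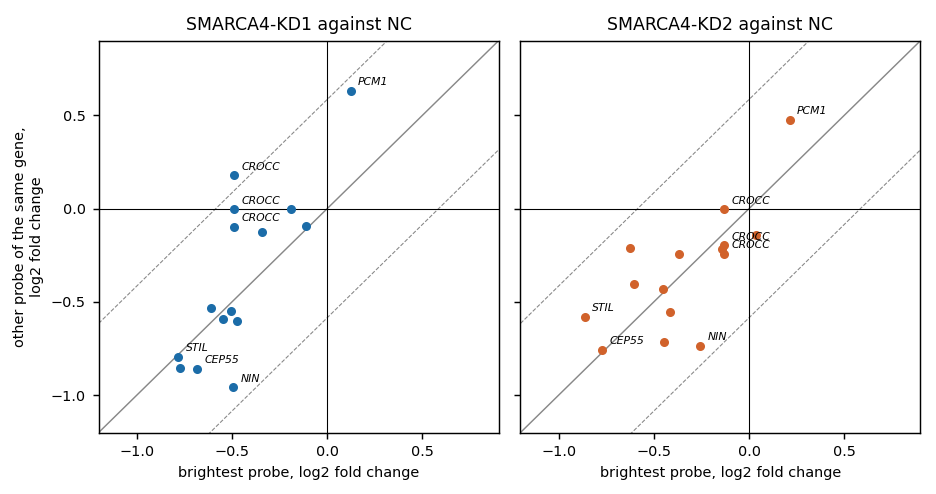
Log2 fold change against NC of the 15 other probes (vertical axis) against the brightest probe of the same gene (horizontal axis), 1 point per probe, for SMARCA4-KD1 (left) and SMARCA4-KD2 (right). The solid line is equality and dashed lines are 1.5-fold from it; 1 CROCC probe with SMARCA4-KD1 lies beyond them, by 0.67 from its brightest probe.

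Positions of the probes are those of hg19 in the array files. The STIL probe lies on chromosome 1 from 47726126 to 47726185, the CEP135 probe on chromosome 4 from 56899111 to 56899170, and the POC1A probe on chromosome 3 from 52109454 to 52109513. The POC1B probe lies on chromosome 12 from 89814047 to 89814106, the POC5 probe on chromosome 5 from 74970095 to 74970154, and the CEP55 probe on chromosome 10 from 95288754 to 95288813. Whether these stretches are coding or UTR sequence was not determined here.

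The promoters of the 6 genes that were lower with both small interfering RNAs were read from RefSeq (GRCh38.p14), since these genes were lower together. Each window holds 250 bases before the transcript start and 50 after it. Windows were found for 35 of the 39 genes, 46 windows in all, and CEP78, CEP250, PCM1 and SPICE1 had none. Searched on both strands were CCAAT, the box bound by NF-Y, TTCCCGC, a core of E2F sites, and TTTGAA, the cell cycle homology region (CHR) bound by the MuvB complex. No matches in the stretches shown share a base. The stretches before the start are shown for the 4 genes in which such a motif lies there, with motifs of either strand in capitals:

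STIL, chr1:47314148-47314397: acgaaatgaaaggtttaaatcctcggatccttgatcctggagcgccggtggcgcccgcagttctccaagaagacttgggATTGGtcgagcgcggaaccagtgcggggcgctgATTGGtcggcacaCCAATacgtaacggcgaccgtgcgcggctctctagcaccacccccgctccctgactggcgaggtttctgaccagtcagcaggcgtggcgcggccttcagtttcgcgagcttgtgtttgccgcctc
POC1A, chr3:52154424-52154673: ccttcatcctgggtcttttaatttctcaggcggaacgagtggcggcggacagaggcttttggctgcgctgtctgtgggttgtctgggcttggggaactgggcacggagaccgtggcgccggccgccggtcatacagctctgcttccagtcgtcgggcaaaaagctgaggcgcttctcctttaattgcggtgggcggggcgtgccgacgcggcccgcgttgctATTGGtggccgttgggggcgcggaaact
POC5, chr5:75717438-75717687: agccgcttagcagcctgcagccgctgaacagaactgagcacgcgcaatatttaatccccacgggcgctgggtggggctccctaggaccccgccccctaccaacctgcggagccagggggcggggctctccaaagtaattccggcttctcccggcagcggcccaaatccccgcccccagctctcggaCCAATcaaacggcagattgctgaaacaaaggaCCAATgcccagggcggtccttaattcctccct
CEP55, chr10:93496362-93496611: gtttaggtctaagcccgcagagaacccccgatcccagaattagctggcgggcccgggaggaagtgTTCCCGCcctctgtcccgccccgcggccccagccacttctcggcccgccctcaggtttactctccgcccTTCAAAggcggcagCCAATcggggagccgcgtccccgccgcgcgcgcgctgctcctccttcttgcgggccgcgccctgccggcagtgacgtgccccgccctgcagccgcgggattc

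STIL, POC1A and POC5 are on the minus strand and CEP55 is on the plus strand, and each sequence reads 5′ to 3′ along its gene. The STIL stretch has 3 CCAAT boxes, 1 on the plus and 2 on the minus strand of the gene, the POC5 stretch has 2 and the POC1A and CEP55 stretches have 1 each. CEP55 also holds TTCCCGC and, upstream of its CCAAT box, a CHR on the minus strand. Another CHR match of CEP55 on the minus strand begins 3 bases before the start and runs past it, so it is not in capitals. In the windows as a whole, CCAAT was in 4 of the 6 genes, TTTGAA in 3 (CEP135, POC5 and CEP55) and TTCCCGC in 2 (STIL and CEP55), in part within the 50 bases after the start. POC1B held none of them, and in CEP135 the single match lay after the start. POC5 has a second window, which held none of the motifs and is not shown.

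Over the 46 windows of the centriole and centrosome genes, CCAAT was in 47.8%, against 34.6% of all 35116 windows of the table. TTTGAA was in 26.1% against 15.2%, and TTCCCGC in 23.9% against 6.55%. Counted by gene, CCAAT was in 18 of the 35 genes with windows, TTTGAA in 12 and TTCCCGC in 10. These 35 include the 6 genes lower with both small interfering RNAs, and no difference of the 6 from the rest was tested. Some genes have more than 1 window, and the windows of the table are not limited to genes measured on these arrays. A match describes letters in a window and does not show that a factor was bound there.

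The other genes of centrosome biology were taken from a list of 58, of which 57 were on the array and 56 were well above background. Of the 56, 13 (23.2%) were at least 1.5-fold lower with SMARCA4-KD1 and 12 (21.4%) with SMARCA4-KD2, against 12.2% and 9.77% of all genes. In each knockdown 1 was at least 1.5-fold higher, against 11.2% and 10.1% of all genes. The medians of the 56 were -0.23 and -0.16. Higher in both was 1, against 6.36% of all genes. Against 8.03% of all genes, 9 of the 56 (16.1%) were lower with both small interfering RNAs. The largest differences among these were those of NEK2, ASPM and TACC3. NEK2, the kinase that dissolves the linker, was at -1.29 and -1.05, and ASPM, a spindle pole protein, at -1.27 and -1.17. TACC3, which stabilises spindle microtubules, was at -1.08 and -1.29. Some of the G2 and M genes read below were as low, with KIF20A at -1.32 and -1.01, while the medians of that list were -0.74 and -0.66. The part of cell cycle transcripts in these values was not tested.

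CEP295 and CEP350, both proteins of the centriole, were at -0.59 and -0.63 and at -0.72 and -0.69. ODF2, the base of the appendages, was at -0.71 and -0.69, and KIF24, a kinesin that restrains cilium growth, at -0.79 and -0.68. MZT1, a small subunit of the gamma-tubulin ring, was at -0.63 and -0.59. HAUS5, a subunit of augmin, which branches spindle microtubules, was at -0.73 and -0.72. HAUS2, of the same complex, was the 1 gene higher in both knockdowns, with signals of 1682 with SMARCA4-KD1, 1368 with SMARCA4-KD2 and 842.5 in NC, log2 fold changes of 0.91 and 0.67. Under normexp background correction and with the mean over probes it did not reach 1.5-fold in both.

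Transcripts of proliferating cells were read on the same arrays, since many centrosome genes are transcribed with the cell cycle. Of 16 genes of G2 and M phase, 11 (68.8%) were at least 1.5-fold lower with SMARCA4-KD1 and 10 (62.5%) with SMARCA4-KD2. Their medians were -0.74 and -0.66. Of 16 genes of G1/S and S phase, 3 (18.8%) were at least 1.5-fold lower with SMARCA4-KD1 and 4 (25.0%) with SMARCA4-KD2. Their medians were -0.30 and -0.32. Over all genes measured the shares at least 1.5-fold lower were 12.2% with SMARCA4-KD1 and 9.77% with SMARCA4-KD2. The summed scaled signal of the G2 and M genes was 61.8% and 64.0% of NC, that of the G1/S and S genes 85.7% and 83.1%, and that of the 38 centriole and centrosome genes 75.5% and 78.0%. Such a sum is weighted toward bright probes, among the 38 genes most of all that of TUBG1, at 68.5% and 74.9% of NC. The sums are therefore not used to rank the lists. By median, the 38 genes were at -0.34 and -0.33. The part of cell cycle transcripts in the values of the centriole and centrosome genes was not tested.

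**Figure D4:**
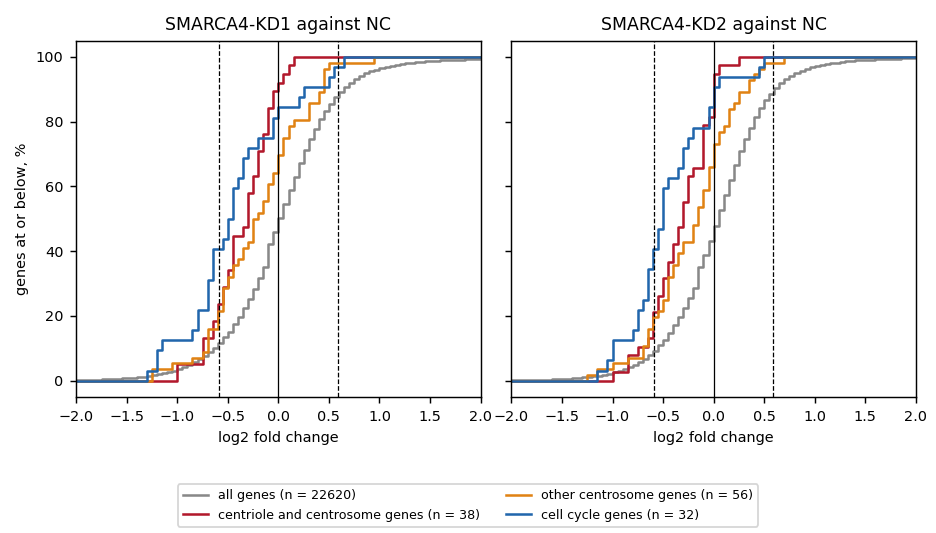
Percentage of genes (vertical axis) with a log2 fold change against NC at or below each value (horizontal axis), for SMARCA4-KD1 (left) and SMARCA4-KD2 (right), for all 22620 genes, the 38 centriole and centrosome genes, 56 other centrosome genes and 32 cell cycle genes. Dashed lines mark 1.5-fold. The medians of the centriole and centrosome genes, -0.34 and -0.33, lie between those of all genes and those of the pooled cell cycle genes, -0.52 and -0.54. The pool joins G2 and M genes (medians -0.74 and -0.66) and G1/S and S genes (-0.30 and -0.32).

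Both knockdown arrays together were tested against NC with limma. This fit has 1 residual degree of freedom and takes NC to vary as the knockdown arrays do. At an adjusted p of 0.05, 0 of the 38 genes and 0 of the 22620 genes passed, and the lowest adjusted p among the 38 was 0.0939. At an unadjusted p under 0.05, 14 of the 38 (36.8%) passed in limma, all 14 lower than NC, where 30.7% of all genes passed, 14.5% in that direction. CEP135 had a mean log2 fold change of -1.03 ± 0.09 (SE) with an adjusted p of 0.0939 in limma, and POC1B of -0.93 ± 0.12 with 0.0941. STIL was at -0.82 ± 0.08 and POC1A at -0.67 ± 0.075, both with a limma adjusted p of 0.0939. The methods' t-test on the same values also gave 0 of the 38 after adjustment. With 1 array per condition, this t-test takes its spread only from the difference between the knockdown arrays. That difference was 0.009 for CEP135, -0.00 for POC1A and -0.007 for POC5, against 0.078 for STIL and -0.156 for POC1B. STIL and POC1B had larger mean fold changes than POC1A and POC5. A small p in this t-test therefore does not rank the genes.

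The count of limma calls depended on the processing more than the fold changes did. Under 5 of the alternatives an adjusted p of 0.05 was passed by 8 to 20 of the genes, each lower than NC in the fit. The share of the genes that passed was 26.3% against 11.7% of all genes with quantile normalization, 21.1% against 13.5% with normexp, 34.2% against 26.5% with the filter on all arrays, 26.3% against 14.8% without the floor and 51.3% against 66.0% without a filter. The 20 genes without a filter include SPICE1, whose values there are those of the background floor.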

How the data were processed

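Total RNA of NC cells and of cells of either SMARCA4 knockdown (1 array each) was labelled with Cy3 and hybridised to Agilent SurePrint G3 arrays. The authors deposited scanner files whose values are the intensity of each spot, extracted with Agilent Feature Extraction 10.7.1.1 per the submitters' processing notes, background-subtracted and detrended but not normalized between arrays. The other deposited columns used were the extraction's 0 or 1 flags and its error per spot. A deposited series-level table of intensity differed by less than 0.1% from the scanner files over all 57 probes of the 39 genes.

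Control spots and outlier flags were left out, and repeated spots were averaged. From log2 of the processed signal the 75th percentile of the array was subtracted. Values not well above background were raised to the lowest value well above background on the array. Of 58201 probes, 29334 were well above background somewhere and entered the tests, each gene being represented by its brightest one. Differences of either knockdown from NC were read at 1.5-fold, which the study's methods use, without a test. Both knockdowns were tested against NC with limma 3.58.1 (R 4.3.3), an intensity trend included, p-values being adjusted by Benjamini-Hochberg over all genes, and with the methods' t-test. That t-test is the Student's test named in the study's general statistics. The study's array methods do not name a test, so it may differ from what was run there. Lists, motifs and plots were made with Python 3.11.15, pandas 2.3.3, numpy 2.4.6 and matplotlib 3.10.9, and steps across all genes were tested on simulated data. The number of arrays limits the precision, and no p-value measures the spread between cultures.

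The 39 genes, the roles, the lists and the alternatives were chosen with earlier results of these data known. Given in full are genes at least 1.5-fold lower or higher in both knockdowns, the core duplication genes, the gamma-tubulin genes, the POC1 paralogs and genes with disagreeing probes, and the rest by value or range. The arrays of the PRMT1 knockdown were not analysed here. The alternatives were quantile normalization, the percentile over probes well above background, normexp with an offset of 50, no floor, the mean over probes, no filter or one that asks for signal on each of the 3 arrays, the series-level table, a 2-fold threshold, and limma without a trend.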

Additional observations from a re-analysis of the deposited data

How the results depend on the processing

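The 240 fold changes recomputed for the 15 genes given in full each moved by less than the extraction error. The median of the 38 genes ranged from -0.396 to -0.305 with SMARCA4-KD1 and from -0.380 to -0.321 with SMARCA4-KD2. The count lower in both knockdowns stayed at 6, the same genes, except for 5 with normexp and with the mean over probes, which lost POC5, and 1 (CEP135) at 2-fold. At 1.5-fold, the share of all genes lower in both was 8.03% in the main setting. It ranged from 3.88% with normexp to 9.27% with the percentile over probes well above background. With normexp, 6 genes in place of 10 were at least 1.5-fold lower with SMARCA4-KD2 (4.59% of all genes), and 0 other centrosome genes were higher in both in place of 1, as with the mean over probes. At 2-fold, 2 of the 38 genes were lower with SMARCA4-KD1 (3.63% of all genes), 1 with SMARCA4-KD2 (2.60% of all genes) and 1 in both (2.10% of all genes), and 3 other centrosome genes were lower and 0 higher in both. In limma at an adjusted p of 0.05, 10 of the genes and 2651 of all genes passed with quantile normalization, 8 and 3062 with normexp, 13 and 5174 with the filter on all arrays, 20 and 28567 without a filter, and 10 and 3359 without the floor. The cause was not tested. No paired analysis was possible because each condition has 1 array. A slide block was not run because each slide holds only knockdown arrays or only NC, and no array could be left out because each condition has only 1. The number of arrays, the slides and the handling of background all limit these values.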
